A study of Mus musculus with 18 samples.

Results

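Immediate early genes are the genes that neurons and other cells switch on within minutes of a stimulus, without first making new protein. The 10 described here are the transcription factor genes Fos, Fosb, Junb, Egr1, Egr2, Npas4 and Nr4a1, the synaptic scaffold gene Arc, the transcriptional regulator Ier2 and the phosphatase gene Dusp1. They were taken by name from the 55270 gene rows of the deposited table, with no cutoff on their values. Earlier results of these data were known when the genes were chosen. All 10 passed the filter on low values (at least 10 normalised reads in at least 6 libraries), as did 19442 genes in all. RNA was sequenced from the substantia nigra, the midbrain nucleus that holds dopamine neurons, of 3-month-old mice, with 6 mice and 6 libraries in each of 3 groups. Intact mice are labelled wild type, and strain and sex are not given in the sources used here. The AAV-GFP mice had received an adeno-associated virus for green fluorescent protein and the AAV-SIRT3 mice one for SIRT3, a mitochondrial deacetylase, 1 month before tissue was taken. The virus serotype, its promoter, the cells it entered and the time between handling and dissection are not given in the sources used here.

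Calcium entry and growth factor signalling reach these genes through kinases that modify factors already bound at their promoters, CREB at cAMP response elements and SRF at CArG boxes. Fos, Fosb and Junb proteins pair with Jun proteins into the AP-1 transcription factor, Egr1 and Egr2 are zinc finger factors, Nr4a1 is an orphan nuclear receptor, and Npas4 is a neuron-restricted factor that responds to calcium. Their transcripts are short-lived, so their level in dissected brain reads the recent past of the tissue, including handling of the animal.

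In build GRCm38 (GENCODE M21) Fos is at chr12:85473890-85477273, Fosb at chr7:19302696-19310051 and Junb at chr8:84974484-84978718. Egr2 is at chr10:67535475-67542188 and Npas4 at chr19:4984355-4990316. Arc (chr15:74669083-74672570) and Nr4a1 (chr15:101254269-101274795) share a chromosome, Ier2 is at chr8:84661331-84662852 and Dusp1 at chr17:26505590-26562128. Of the 10 annotated spans, that of Egr1 included, 8 overlap no other gene. Junb overlaps Prdx2, a peroxiredoxin gene on the opposite strand, and the annotated span of Dusp1 takes in Ergic1 and 3 other entries. Whether the authors counted by strand is not given in the sources used here, so reads of Junb and Prdx2 may not have been told apart.

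RefSeq promoters of build GRCm38.p6 matched 7 of the 10 genes (all but Arc, Egr1 and Ier2), and the 250 bases before the first listed start site of each were searched on both strands. The sequence TGACG, the core of a cAMP response element, was in 6 of the 7, against 17.9% of all 27025 promoters of this length. The full palindrome TGACGTCA, which contains it, was in 1 of 7 (Dusp1, at position -143) against 1.62%. The Egr-type site GCGNGGGCG was in 2 of 7 (Fosb at position -50, Nr4a1 at -60) against 4.65%. TATAA was in 2 of 7 (Fos at -33, Npas4 at -26) against 23.5%, and a CArG box was in none of these 7 windows against 1.4%, although it was in the windows of other annotated start sites of Egr2. The 4 promoters printed here belong to genes positively correlated in level between mice of the same group (given with the correlations). Not every pair of them passed at an adjusted p under 0.05. Fosb with Dusp1 passed by neither Pearson r nor Spearman's rho (permutation adjusted p = 0.0859 and 0.173), and Fosb with Nr4a1 by r alone (0.0449 against 0.173). Junb and Npas4 were also correlated and are not printed. Capitals mark TGACG, its reverse complement CGTCA and the palindrome.
Fos (chr12:85473640-85473889, plus strand): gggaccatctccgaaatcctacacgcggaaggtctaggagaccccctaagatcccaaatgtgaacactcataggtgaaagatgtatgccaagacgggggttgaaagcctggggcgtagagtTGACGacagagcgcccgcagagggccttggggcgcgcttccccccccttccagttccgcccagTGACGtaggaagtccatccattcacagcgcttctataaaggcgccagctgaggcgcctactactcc
Fosb (chr7:19310046-19310295, minus strand): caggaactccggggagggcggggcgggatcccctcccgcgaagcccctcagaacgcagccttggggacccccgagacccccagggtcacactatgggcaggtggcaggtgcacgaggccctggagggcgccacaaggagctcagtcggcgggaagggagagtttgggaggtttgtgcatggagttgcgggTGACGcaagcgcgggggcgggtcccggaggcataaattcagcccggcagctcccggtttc
Nr4a1 (chr15:101266596-101266845, plus strand): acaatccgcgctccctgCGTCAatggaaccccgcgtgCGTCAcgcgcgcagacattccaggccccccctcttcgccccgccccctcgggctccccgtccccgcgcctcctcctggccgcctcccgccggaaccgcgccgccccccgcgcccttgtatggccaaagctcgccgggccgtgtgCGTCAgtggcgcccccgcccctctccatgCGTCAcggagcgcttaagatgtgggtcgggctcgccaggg
Dusp1 (chr17:26508473-26508722, minus strand): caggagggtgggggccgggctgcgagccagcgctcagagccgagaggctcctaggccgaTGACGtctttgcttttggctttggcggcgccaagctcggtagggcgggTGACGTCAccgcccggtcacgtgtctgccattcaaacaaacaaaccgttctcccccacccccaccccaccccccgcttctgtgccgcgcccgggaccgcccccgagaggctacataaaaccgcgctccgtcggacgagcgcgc
In Fos the element begins at positions -129 and -66, in Fosb at -60, and in Dusp1 at -191 and -143. Nr4a1 carries it 4 times on the other strand, at -233, -213, -69 and -40. Outside these 4, Junb has it at -106 and Npas4 at -179 and -169. These are matches of letters, and no factor was mapped in this study.

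Each library held between 47182420 and 64728400 reads assigned to genes. Summed markers of dopaminergic neurons lay between 43817 and 66867 normalised reads in every library, and all 12 had group means of at least 10. Sirt3 itself averaged 1937 ± 79.4 normalised reads (SD, n = 6) with AAV-SIRT3, 1775 ± 92.4 with AAV-GFP and 1824 ± 66.3 in intact mice, with ranges that overlap; whether the transgene's reads could map to the mouse gene is not given in the sources used here. Intact libraries 1, 3 and 5 stood apart in markers of thalamic neurons, a neighbouring region, with summed levels of 47105 to 49191 against 73411 to 95206 in the other intact libraries and 75102 to 101489 in the 12 virus libraries. Each printed difference of the 10 genes from intact mice is also given without them where that ended a call, turned a direction or moved a value by over 1.5 times. In this bulk tissue, fewer cells of a type and less RNA per cell cannot be told apart.

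All 10 genes were detected in every library, at levels that spanned 2 orders of magnitude per length. In intact mice Arc stood highest, at 635 ± 54.3 normalised reads per kilobase of exon (SD, n = 6), followed by Egr1 at 616 ± 118.0, Fos at 525 ± 125 and Dusp1 at 358 ± 57.7. Junb (299 ± 38.8), Nr4a1 (283 ± 66.0) and Ier2 (152 ± 13.04) came next on this scale, and then Npas4 (86.9 ± 19.1), Fosb (23.9 ± 7.03) and Egr2 (4.43 ± 2.77). Neighbours in this order overlapped in range down to Ier2, although within a library Egr1 exceeded Fos, Fos exceeded Dusp1 and Dusp1 exceeded Junb in 6 of 6 intact libraries. The ranges of Ier2 and Npas4, of Npas4 and Fosb, and of Fosb and Egr2 did not overlap in intact mice. In both virus groups Egr1 came first and Arc second, at 748 ± 119 against 649 ± 77.3 per kilobase with AAV-GFP and 630 ± 75.9 against 604 ± 45.9 with AAV-SIRT3. Egr1 was above Arc in 3 of 6 intact libraries, 5 of 6 AAV-GFP libraries and 3 of 6 AAV-SIRT3 libraries.

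**Figure D1:**
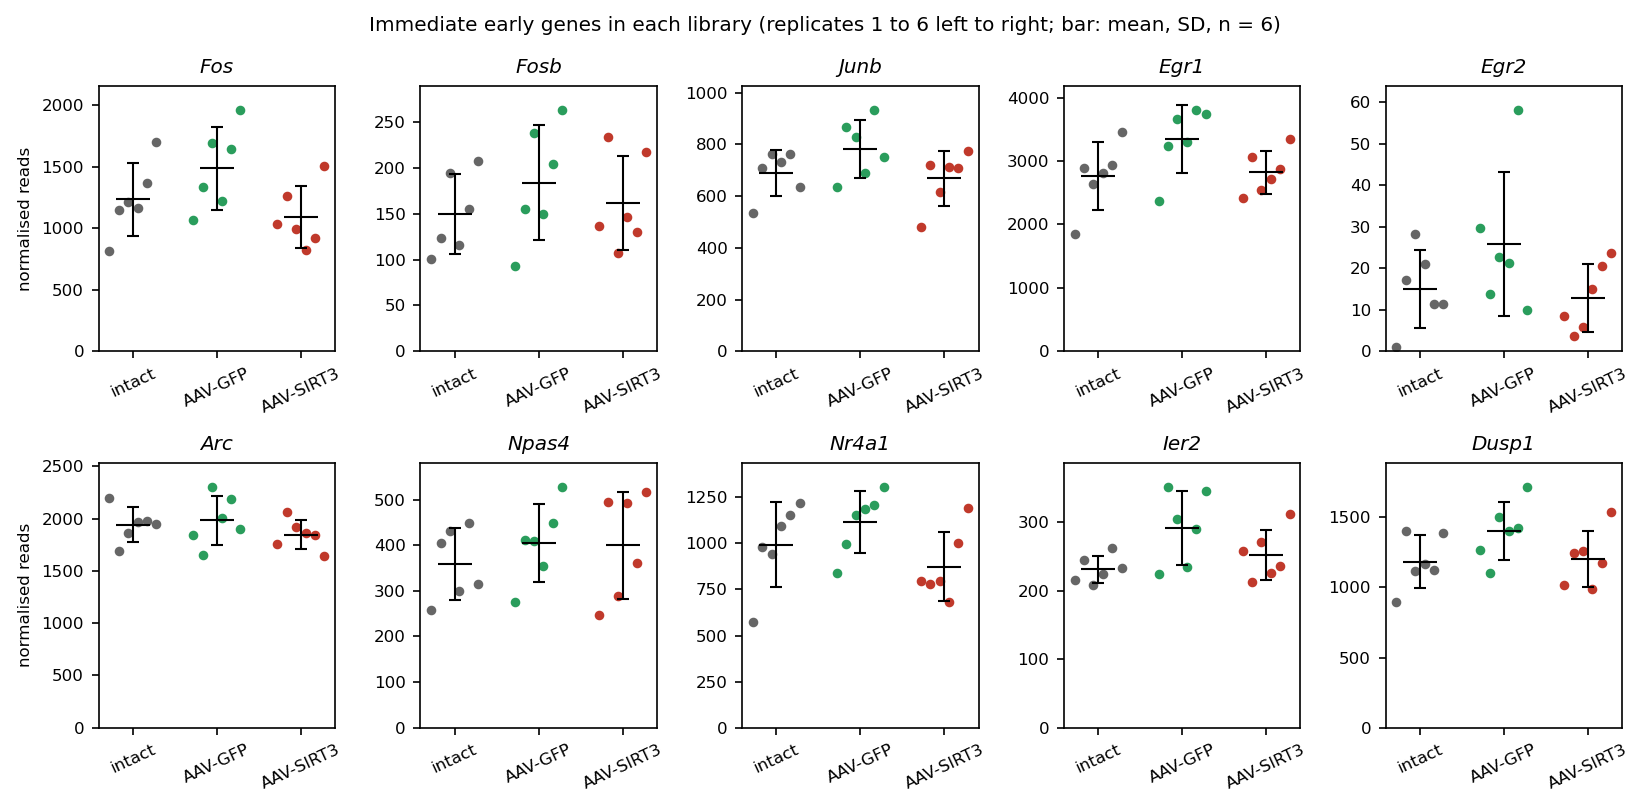
Normalised reads (vertical axes, from 0) of the 10 genes in each of the 18 libraries, with points in replicate order within a group and bars giving the mean and SD of 6 libraries. The AAV-GFP mean is the highest of the 3 in all 10 panels, and the points of every pair of groups overlap in all 10.

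Setting AAV-SIRT3 mice beside AAV-GFP mice addresses the effect of SIRT3 over that of a control virus. None of the 10 genes passed the test in limma (adjusted p under 0.05), against 0.113% of all genes tested, and edgeR and DESeq2 also called 0 (DESeq2 gave Egr2 no adjusted p here or for AAV-GFP against intact). All 10 had lower mean log2 levels with AAV-SIRT3, with a median log2 fold change of -0.23 where the median of all genes was -0.0041 and 51.4% of all genes lay below 0. At an unadjusted p under 0.05 stood 2 of the 10, Fos and Nr4a1, against 15.2% of all genes. Because the genes vary together between mice (given with the correlations), their shared direction is not 10 separate observations.

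Comparing AAV-GFP with intact mice addresses the effect of the virus and its delivery without SIRT3. Again 0 of 10 passed in limma, edgeR and DESeq2, against 1.84% of all genes in limma. All 10 had higher mean log2 levels with AAV-GFP, with a median log2 fold change of 0.26 against 0.00074 over all genes, of which 50.2% lay above 0. The 3 at an unadjusted p under 0.05 were Ier2, Egr1 and Dusp1, where 19.1% of all genes reached it. Without intact libraries 1, 3 and 5 the median was 0.16, and 0 of 10 passed. Without intact replicate 1 alone it was also 0.16. Markers of other cells moved in this comparison too: 5 of 11 microglial markers were higher (summed level 23382 to 29871 against 21104 to 23521), 2 of 10 thalamic markers were higher, and 2 of 12 dopaminergic markers were lower (43817 to 55599 against 50115 to 66867). None of these markers passed without intact libraries 1, 3 and 5, where 0.0514% of all genes did, and the median log2 fold change of the microglial list was 0.41. Their part in the immediate early genes was not tested.

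Between AAV-SIRT3 and intact mice 5 genes lay above 0 and 5 below (49.1% of all genes lay above), with a median log2 fold change of -0.011, and 0 passed in limma, edgeR and DESeq2 where limma called 21.7% of all genes. No gene reached an unadjusted p under 0.05, against 34.9% of all genes. Without intact libraries 1, 3 and 5 the median was -0.089, and with 1 library left out in turn it ranged from -0.058 to 0.058. The first 2 comparisons share the 6 AAV-GFP libraries, so a high AAV-GFP mean alone gives them opposite signs. No gene had groups free of overlap in any comparison, where 0.751%, 1.86% and 9.33% of all genes did in the order given.

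**Figure D2:**
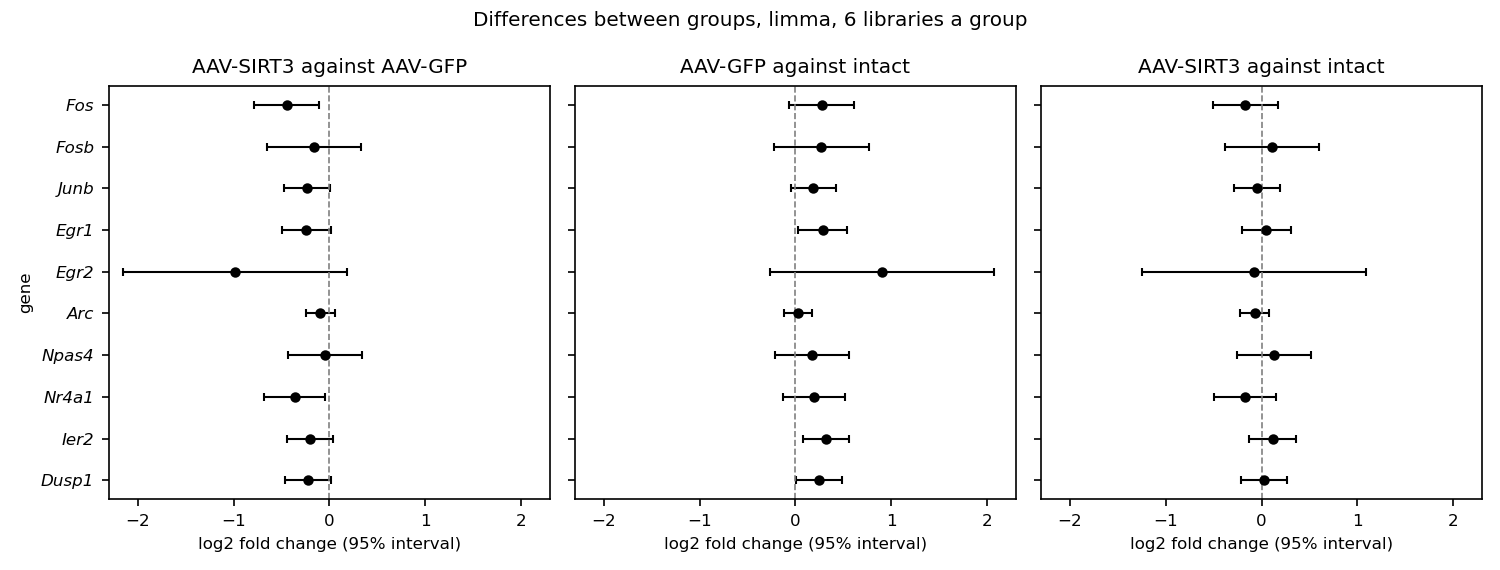
Log2 fold change (horizontal axis, log2 scale) of each gene in the 3 comparisons from limma, with 95% intervals from 6 libraries a group. All points lie left of 0 for AAV-SIRT3 against AAV-GFP and right of 0 for AAV-GFP against intact, and the widest intervals are those of Egr2.

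Among the AP-1 genes, Fos ranged in intact mice from 812 through a median of 1188 to 1703 normalised reads. It ranged from 1067 through 1494 to 1961 with AAV-GFP and from 825 through 1013 to 1508 with AAV-SIRT3. The AAV-SIRT3 group had 4 libraries below the lowest AAV-GFP library, and its replicate 6 alone lay above the AAV-GFP median. The log2 fold change of Fos was -0.45 with AAV-SIRT3 against AAV-GFP (SE 0.16, 95% interval -0.79 to -0.11, limma adjusted p = 0.212). Against intact mice it was 0.27 with AAV-GFP (SE 0.16, limma adjusted p = 0.38) and -0.17 with AAV-SIRT3 (limma adjusted p = 0.481). These were 0.15 and -0.30 without intact libraries 1, 3 and 5, and without intact replicate 1 alone 0.16 and -0.29. The second was -0.073 without intact replicate 6, -0.098 without AAV-SIRT3 replicate 4 and -0.27 without AAV-SIRT3 replicate 6.

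Fosb, whose truncated product builds up under repeated stimulation, lay far lower, from 101 through a median of 139 to 208 normalised reads in intact mice. Its range was 93.1 through 180 to 263 with AAV-GFP and 108 through 142 to 233 with AAV-SIRT3. The AAV-GFP libraries held both the lowest and the highest value of all 18, and the groups overlapped almost wholly. Fosb had a log2 fold change of -0.16 for AAV-SIRT3 against AAV-GFP (SE 0.24, limma adjusted p = 0.795) and 0.27 for AAV-GFP against intact (SE 0.24, limma adjusted p = 0.576). The first was -0.34 with AAV-GFP 1 left out and -0.041 with AAV-GFP 6 left out, and also moved by over 1.5 times without AAV-GFP 3 or AAV-SIRT3 2, 3 or 6. The second was 0.45 without AAV-GFP 1, 0.18 without AAV-GFP 3, 0.15 without AAV-GFP 6 and 0.17 without intact 1.

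Junb, a Jun partner often opposed in action to Jun itself, ran from 533 through a median of 719 to 762 normalised reads in intact mice. It ran from 636 through 789 to 933 with AAV-GFP and from 480 through 711 to 774 with AAV-SIRT3. In each group replicate 1 was the lowest library, and 3 AAV-GFP libraries lay above every intact one. The log2 fold change was -0.23 for AAV-SIRT3 against AAV-GFP (SE 0.11, limma adjusted p = 0.331) and 0.19 for AAV-GFP against intact (SE 0.11, limma adjusted p = 0.393). These were -0.14 without AAV-SIRT3 replicate 1 and 0.11 without intact replicate 1.

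Of the other factors, Egr1, a widely used marker of neuronal activity, ran from 1844 through a median of 2853 to 3459 normalised reads in intact mice. With AAV-GFP it ran from 2371 through 3481 to 3802, and with AAV-SIRT3 from 2415 through 2795 to 3341. Intact replicate 1 was below all other libraries, and 3 AAV-GFP libraries were above all intact ones. For AAV-GFP against intact the log2 fold change was 0.29 (SE 0.12, 95% interval 0.031 to 0.54, limma adjusted p = 0.206). That value was 0.12 without intact libraries 1, 3 and 5 (limma adjusted p = 0.733) and 0.17 without intact replicate 1 alone. For AAV-SIRT3 against AAV-GFP it was -0.24 (SE 0.12, limma adjusted p = 0.356).

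Egr2, known also as a regulator of myelinating Schwann cells, was close to the limit of these libraries. Its range was 0.915 through a median of 14.4 to 28.3 normalised reads in intact mice, 9.82 through 21.97 to 58.1 with AAV-GFP and 3.68 through 11.7 to 23.6 with AAV-SIRT3. The lowest value, in intact replicate 1, was 1 read, and the highest, in AAV-GFP replicate 5, was 56 reads. The log2 fold change was -0.99 for AAV-SIRT3 against AAV-GFP (SE 0.56, limma adjusted p = 0.411) and 0.91 for AAV-GFP against intact (SE 0.56, limma adjusted p = 0.4). At a pseudocount of 10 in place of 1 these were -0.61 and 0.50, and the second was 0.43 without intact libraries 1, 3 and 5 and 0.37 without intact replicate 1 alone.

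Npas4, the member most specific to neurons, ran from 258 through a median of 360 to 450 normalised reads in intact mice. With AAV-GFP it ran from 276 through 410 to 528 and with AAV-SIRT3 from 248 through 427 to 518. AAV-SIRT3 was split, with replicates 2, 4 and 6 at 493 to 518 and replicates 1, 3 and 5 at 248 to 361. Npas4 had a log2 fold change of -0.044 for AAV-SIRT3 against AAV-GFP (SE 0.19, limma adjusted p = 0.936) and 0.17 for AAV-GFP against intact (SE 0.19, limma adjusted p = 0.659). The first lies near 0 and changed sign without AAV-GFP 6 or AAV-SIRT3 1 or 3, and the second was 0.083 without intact 1, 0.090 without AAV-GFP 6 and 0.28 without AAV-GFP 1.

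Nr4a1 ran from 572 through a median of 1037 to 1220 normalised reads in intact mice, from 841 through 1170 to 1308 with AAV-GFP and from 682 through 795 to 1192 with AAV-SIRT3. As for Fos, 4 AAV-SIRT3 libraries were below the lowest AAV-GFP library, and the AAV-SIRT3 library was the higher one in 6 of the 36 pairs of libraries. The log2 fold change was -0.36 for AAV-SIRT3 against AAV-GFP (SE 0.15, 95% interval -0.68 to -0.041, limma adjusted p = 0.278). For AAV-GFP against intact it was 0.19 (SE 0.15, limma adjusted p = 0.53), 0.014 without intact libraries 1, 3 and 5 and 0.041 without intact replicate 1 alone. For AAV-SIRT3 against intact it was -0.17, and -0.35 without those 3 libraries.

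Arc differs from the rest in kind, since its RNA travels to dendrites, where its protein takes part in synaptic weakening. It ran from 1692 through a median of 1958 to 2200 normalised reads in intact mice, from 1655 through 1952 to 2306 with AAV-GFP and from 1645 through 1850 to 2060 with AAV-SIRT3. The highest intact value was in replicate 1, the library lowest for 8 of the other genes. Log2 fold changes were -0.097 for AAV-SIRT3 against AAV-GFP (SE 0.073, 95% interval -0.25 to 0.053, limma adjusted p = 0.546) and 0.026 for AAV-GFP against intact (SE 0.073, 95% interval -0.12 to 0.18, limma adjusted p = 0.883). The first was -0.15 without AAV-GFP 2, -0.052 without AAV-GFP 3 and -0.064 without AAV-SIRT3 6, and the second, near 0, was 0.080 without intact libraries 1, 3 and 5 and changed sign without intact 2 or AAV-GFP 3 or 5.

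Ier2 ran from 208 through a median of 229 to 262 normalised reads in intact mice, from 224 through 298 to 352 with AAV-GFP and from 212 through 247 to 312 with AAV-SIRT3. Here 4 AAV-GFP libraries lay above every intact library, the most for any of the 10 genes. For AAV-GFP against intact the log2 fold change was 0.32 (SE 0.12, 95% interval 0.073 to 0.56, limma adjusted p = 0.142), and it was 0.30 without intact libraries 1, 3 and 5. For AAV-SIRT3 against AAV-GFP it was -0.20 (SE 0.12, limma adjusted p = 0.422).

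Dusp1, which switches off MAP kinases and so limits the signal that induced it, ran from 897 through a median of 1147 to 1406 normalised reads in intact mice. It ran from 1102 through 1412 to 1720 with AAV-GFP and from 989 through 1211 to 1542 with AAV-SIRT3. AAV-GFP had 3 libraries above every intact one, and AAV-SIRT3 had 2 below every AAV-GFP one. The log2 fold change was 0.25 for AAV-GFP against intact (SE 0.12, limma adjusted p = 0.247), 0.077 without intact libraries 1, 3 and 5, and -0.22 for AAV-SIRT3 against AAV-GFP (SE 0.12, limma adjusted p = 0.364).

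Mice of the same group differed in these genes by more than in most genes of like level. The residual SD on the log2 scale was 0.33 for Fos, where the median of the 2604 genes within 0.5 log2 units of its mean level was 0.10, and this placed Fos at the 98.8th percentile of those genes. Egr1 (0.25) was at the same percentile, and Nr4a1 (0.31) and Egr2 (1.096) were each at the 98.0th. Dusp1 was at the 96.4th, Fosb at the 95.9th, Npas4 at the 95.1st and Junb at the 92.6th. Arc, with an SD of 0.14, was at the 86.8th, and Ier2, with 0.21, was at the 56.4th. The median over all genes tested, of any level, was 0.15.

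**Figure D3:**
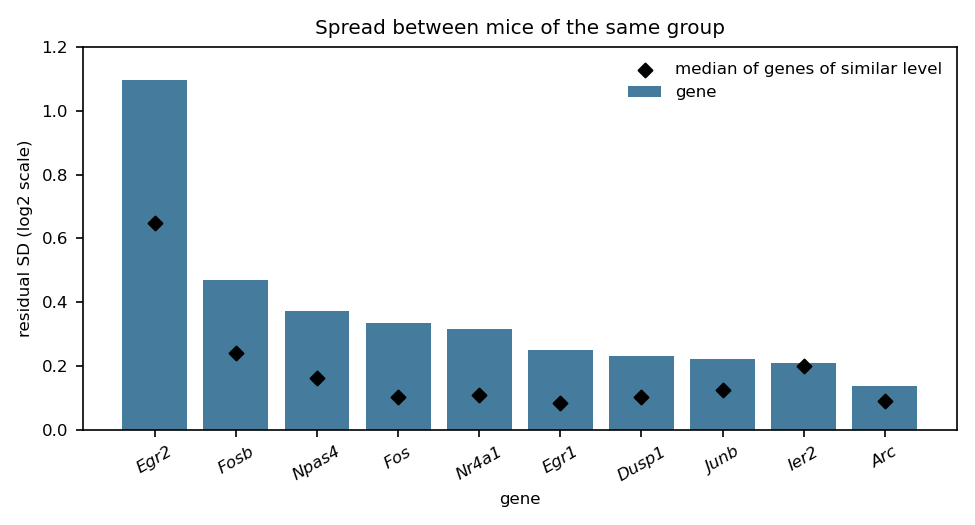
Residual SD between mice of the same group on the log2 scale (bars, from 0) with the median over genes of like level (diamonds). The bar stands above the diamond for all 10 genes, most narrowly for Ier2 (0.21 against 0.20).

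Much of that spread was shared, so that a mouse low in one gene tended to be low in others. Intact replicate 1 was the lowest of its group in 8 of 10 genes, AAV-GFP replicate 1 in 7, and AAV-SIRT3 replicate 6 was the highest in 8. Averaged over the 10 genes, log2 levels centred on the mean of all libraries were -0.71 in intact replicate 1, -0.13 in AAV-GFP replicate 1 and -0.32 in AAV-SIRT3 replicate 1, the lowest of each group. The highest were intact replicate 3 (0.086), AAV-GFP replicate 5 (0.47) and AAV-SIRT3 replicate 6 (0.29). With Egr2 left out, replicate 1 was still the lowest of each group, at -0.46, -0.25 and -0.29 in the same order of groups. Replicate 6 was then the highest of each, at 0.12, 0.41 and 0.24. The labels do not say what a replicate number stands for.

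**Figure D4:**
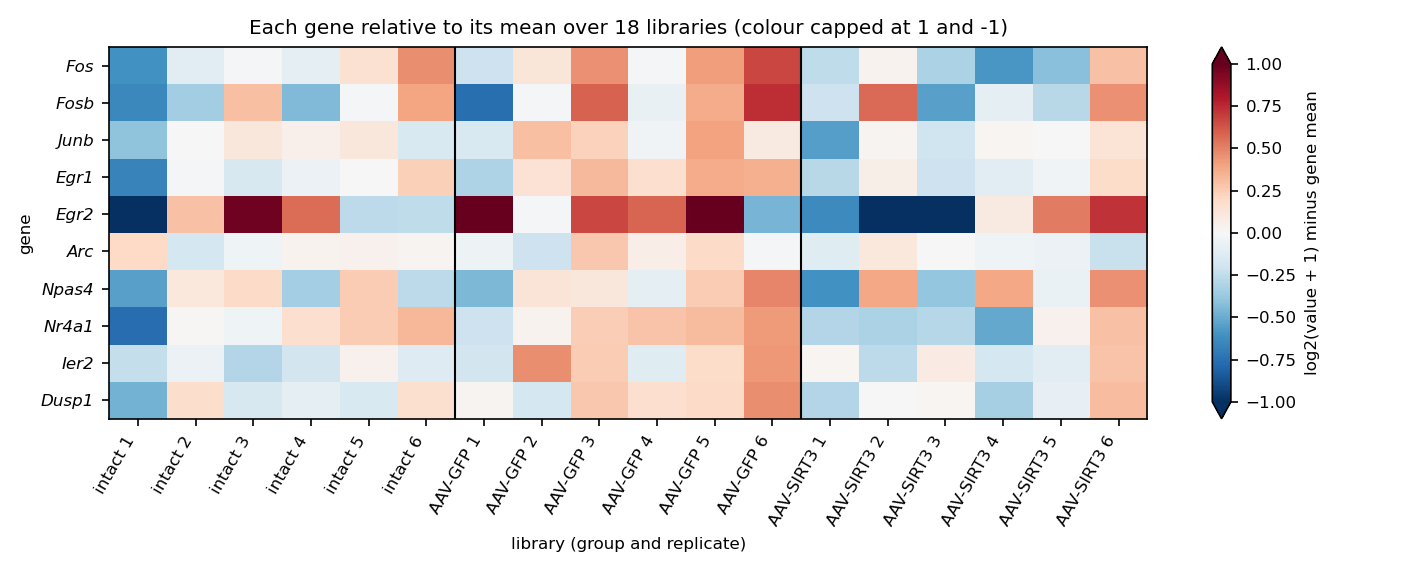
Log2(value + 1) of each gene (rows) in each library (columns, by group and replicate) minus the gene's mean over 18 libraries, as colour from -1 (blue) to 1 (red). Whole columns share a colour, blue in intact 1 and red in AAV-SIRT3 6, except in the row of Arc.

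After group means were removed, 35 of the 36 pairs of genes without Arc were positively correlated over the 18 libraries, with a median Pearson r of 0.52. Of all 45 pairs, 13 had an adjusted p under 0.05 for r and 11 for Spearman's rho (permutation within groups, 100000 resamples, Benjamini-Hochberg over the 45), and 11 had both. With 1 library left out, the count for r was 9 without intact replicate 1 or AAV-GFP replicate 1. It reached 16 without AAV-GFP replicate 2. Fos and Fosb had r = 0.86 (permutation p = 4e-05, adjusted 0.00158) and rho = 0.84 (permutation p = 0.00011, adjusted 0.00315), and r = 0.83 without the 2 libraries farthest from the median of Fos. For Fos and Egr1 r was 0.85 (permutation p = 7e-05, adjusted 0.00158), rho 0.83 (permutation p = 0.00014, adjusted 0.00315) and r 0.81 without 2 libraries. Egr1 and Nr4a1 gave r = 0.87 (permutation p = 0.00022, adjusted 0.00198), rho = 0.79 (permutation p = 0.00034, adjusted 0.0051) and r = 0.71 without 2 libraries. Within groups r of Egr1 and Nr4a1 was 0.97 in intact mice, 0.92 with AAV-GFP and 0.65 with AAV-SIRT3, each over 6 libraries.

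Dusp1 went with Fos (r = 0.76, permutation p = 0.00095, adjusted 0.00585; rho = 0.70, permutation p = 0.00287, adjusted 0.0161; r = 0.66 without 2 libraries). Junb paired most closely with Npas4 (r = 0.81, permutation p = 0.00019, adjusted 0.00198; rho = 0.72, permutation p = 0.00154, adjusted 0.0099; r = 0.69 without 2 libraries). Arc had no pair past the threshold among its 9, with a median r of -0.083 and a range of -0.34 to 0.16. These pooled values join groups that differed in sign for several pairs. For Arc with Dusp1 r was -0.79 in intact mice, 0.59 with AAV-GFP and -0.26 with AAV-SIRT3. For Arc with Egr1 it was -0.59, 0.49 and -0.17, while Arc with Ier2 was negative in each group (-0.28, -0.16 and -0.80). Each of these rests on 6 libraries. No pair of Ier2 or of Egr2 passed either. All genes of a library share its dissection, depth and size factor, and the part of these in the correlations was not tested.

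**Figure D5:**
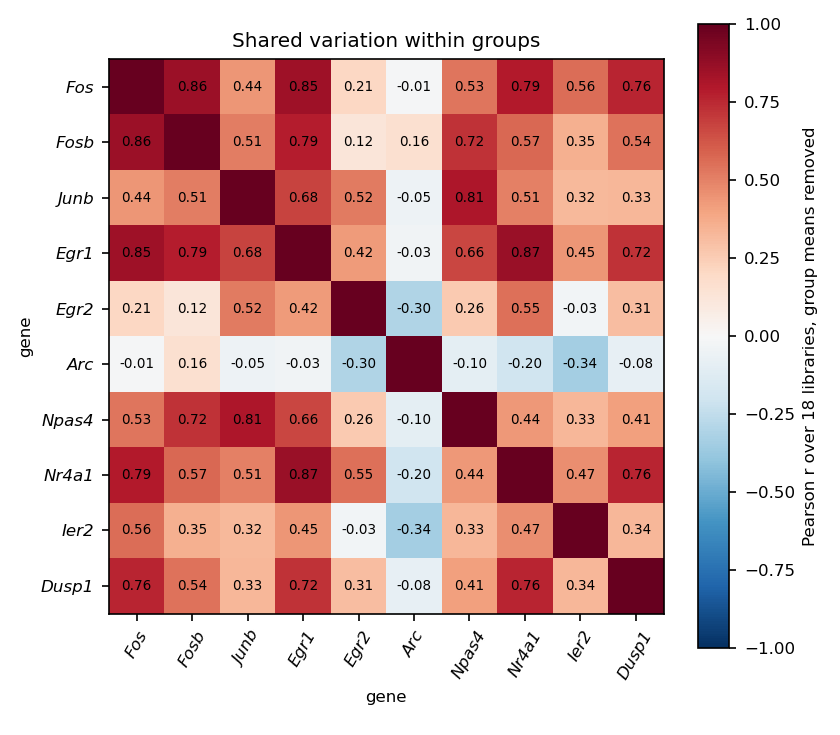
Pearson r between pairs of genes over 18 libraries after removal of group means, as colour and number. Values for Fos, Fosb, Egr1, Nr4a1 and Dusp1 with one another lie between 0.54 and 0.87, and the row of Arc lies between -0.34 and 0.16.

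Some other measures stood apart in 2 of these libraries. Intact replicate 1 had the lowest sum of thalamic markers (47105) and of hippocampal and cortical neuron markers (26474, against 33286 to 41145 in the other intact libraries), and the highest sum of oligodendrocyte markers of all 18 (990297). AAV-SIRT3 replicate 6 had the lowest thalamic sum of its group (75102) and its lowest hippocampal and cortical sum (34857). Its sums of dopaminergic (50086), GABAergic (52721.5) and astrocyte markers (179351) were also the lowest of the group. This library had the highest sums of its group for microglial markers (28142) and glucocorticoid response genes (44220). AAV-GFP replicate 1 differed from intact replicate 1 in this, with the highest thalamic sum of its group (91773), a hippocampal and cortical sum within its group's range (37865) and the lowest oligodendrocyte sum (837848). Their part in the levels of the immediate early genes was not tested. Markers of several cell types moved for AAV-SIRT3 against AAV-GFP. The 9 endothelial markers, which the brain's vessels express, were below 0 in 8 cases, with a median log2 fold change of -0.32 and 0 passing the test. Their summed levels were 8905 to 12824 against 10716 to 13587. Dopaminergic markers were above 0 in 11 of 12 cases (median 0.23) and GABAergic markers in 7 of 7 (0.22), where 48.6% of all genes were. Of 11 microglial markers 1 passed as lower, where 0.113% of all genes passed in either direction. Vessel cells also express Fos, Junb, Nr4a1 and Dusp1. The part of any of these cells in the 10 genes was not tested.

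The genes whose levels were most like the mean of the 10 over the 18 libraries were sought among 15235 other genes with a mean of at least 50 normalised reads. They were Bambi (r = 0.84), Noc2l (0.83), Stk36 (0.83), Farp1 (0.83), Clk2 (0.79), Zfp710 (0.78), Dcdc2a (0.77), Hexa (0.77), Zfp658 (0.76) and 1810020O05Rik (0.76). With group means removed the first 5 were Bambi (0.88), Ccnl2 (0.87), Farp1 (0.86), Piwil2 (0.85) and mt-Rnr2 (0.83), the last a mitochondrial ribosomal RNA. Known relatives of the 10 ranked lower by the first measure, the highest being Btg2 31st, Klf2 42nd, Klf4 63rd, Nr4a3 66th, Cebpd 106th and Fosl2 151st of 15235. Others ranked further down, such as Egr3 304th, Jun 759th, Egr4 4369th, Nr4a2 11957th (r = -0.23) and Ier5 14543rd (r = -0.46). The genes of most like pattern are the highest of many values and are given as a description. The mean of the 10 includes Egr2, the most variable and least expressed of them. In intact replicate 1 that mean was -0.71 with Egr2 and -0.46 without. Likeness to the mean without Egr2 was not computed.

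Around the 10 genes, other members of the same pathways were taken from lists. For AAV-SIRT3 against AAV-GFP, 0 of the 7 other AP-1 genes tested passed in limma (median log2 fold change -0.16), 0 of 6 other EGR, NR4A and NAB genes (-0.099), 0 of 27 other rapid response genes (-0.095), 0 of 9 other dual-specificity phosphatases (0.0055), 0 of 16 later activity-regulated genes (-0.062) and 0 of 20 upstream regulators (0.0013). Of 11 glucocorticoid response genes, a list that includes the receptor gene Nr3c1, 0 passed (0.068). Jun, the main partner of Fos, averaged 1824 with AAV-SIRT3, 2239 with AAV-GFP and 2296 normalised reads in intact mice. Its log2 fold change was -0.30 against AAV-GFP (limma adjusted p = 0.0995). Every AAV-SIRT3 library lay below every AAV-GFP one for Jun, where 0.751% of all genes had no overlap in either direction. Btg2, an antiproliferative rapid response gene, had -0.34 in the same comparison (limma adjusted p = 0.231), Egr3 -0.18 (0.849) and Nr4a3 -0.17 (0.698).

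For AAV-GFP against intact, 1 of 9 other dual-specificity phosphatases and 1 of 27 other rapid response genes passed, both higher. Of all genes, 0.823% were called higher. None passed among 7 other AP-1 genes, 6 EGR, NR4A and NAB genes, 16 later genes, 20 upstream regulators and 11 glucocorticoid response genes. Dusp6, a phosphatase that acts on ERK and is itself induced by ERK, averaged 1768 against 1255 (log2 fold change 0.51, limma adjusted p = 0.012), with no overlap. The growth arrest gene Gadd45g averaged 681 against 523 (0.38, limma adjusted p = 0.0496), with no overlap, and lost its call when any of 13 of the 18 libraries was left out, among them each of intact 1 to 5. Without intact libraries 1, 3 and 5 neither passed, at 0.31 for Dusp6 (limma adjusted p = 0.231) and 0.37 for Gadd45g. Of all genes, 1.86% had no overlap in this comparison. Atf3 (52.6 against 36.2) and Cebpd (169 against 115) also had none, higher with AAV-GFP, and did not pass.

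AAV-SIRT3 against intact called 21.7% of all genes, and the counts of these lists are to be read against that share. Jun was lower (log2 fold change -0.33, limma adjusted p = 0.00311), the 1 of 7 AP-1 genes to pass, and 0 of 6 EGR, NR4A and NAB genes passed. Among rapid response genes Sik1, a kinase that restrains CREB signalling, was lower (-0.30, limma adjusted p = 0.0159), as was Klf10 (-0.23, 0.0414), and the pseudokinase gene Trib1 was higher (0.35, 0.0104), 3 of 27 in all. The phosphatases Dusp6 (0.42) and Dusp14 (0.39) were higher and Dusp16 (-0.21) lower, 3 of 9. Of the later genes Rgs2 (0.14) and Crem (0.20) were higher and the prohormone convertase Pcsk1 (-0.27) lower, 3 of 16.

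The same share of 21.7% called, and 9.33% without overlap, holds for the remaining lists. Among 20 upstream regulators, 4 passed. Ep300, the histone acetyltransferase that works with CREB, averaged 3688 against 4553 (log2 fold change -0.31, limma adjusted p = 0.00194), with every AAV-SIRT3 library below every intact one. Srf was lower too (-0.20, limma adjusted p = 0.0223; 0.0602 without intact replicate 3 and 0.0523 without AAV-SIRT3 replicate 3). Ppp3ca, the catalytic subunit of calcineurin, and Mapk3, or ERK1, were higher (0.17 and 0.12). Of the 11 glucocorticoid response genes, 4 passed. Sgk1 (0.98, limma adjusted p = 0.00502) and Tsc22d3 (0.52, 0.000304) were higher without overlap. Cdkn1a (0.48, and 0.36 with limma adjusted p = 0.0509 without AAV-SIRT3 replicate 6) and Klf9 (0.24) were higher with overlap. Fkbp5, of the same list, had 0.19 (limma adjusted p = 0.0867). In this comparison 6 of 11 microglial markers were higher too, with every AAV-SIRT3 sum (23886 to 28142) above every intact one (21104 to 23521), and 6 of 11 passed without intact libraries 1, 3 and 5. With all intact libraries 8 of 10 thalamic markers were higher, and without those 3 none passed. Of 9 endothelial markers 4 were lower and 1 higher (median log2 fold change -0.31). Without those 3 libraries, where 8.67% of all genes passed, 1 endothelial marker was lower and 1 higher. Oligodendrocyte markers were higher in 2 of 7 cases and GABAergic markers in 1 of 7, with or without those 3 libraries. No dopaminergic, astrocyte or hippocampal and cortical marker passed. The part of these cells in the calls was not tested.

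Several of these calls were lost when any of a number of libraries was left out. Klf10, Dusp14 and Crem lay close to the threshold (limma adjusted p = 0.0414, 0.0466 and 0.0462). Klf10 lost its call without any one of 10 libraries, Dusp14 and Crem of 13 each and Rgs2 of 7. Mapk3 lost it without intact 2 or 4 or AAV-SIRT3 1, 3, 5 or 6, and Ppp3ca without intact 3 or 4 or AAV-SIRT3 3, 4 or 5. Jun, Sik1, Trib1, Dusp6, Dusp16, Pcsk1, Ep300, Sgk1, Tsc22d3 and Klf9 kept theirs with each library left out in turn. Without intact libraries 1, 3 and 5, where 8.67% of all genes passed, 7 of these stayed called: Jun, Sik1, Dusp16, Ep300, Sgk1, Tsc22d3 and Cdkn1a.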

How the data were processed

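Poly-A RNA of 18 substantia nigra samples with an RNA integrity number above 7.0 was sequenced from stranded libraries (paired reads of 100 bases), per the labels' protocols. HISAT2 2.1.0, DESeq2 1.34.0 and mm10 are named in the submitters' processing notes; annotation and strand setting are not given in the sources used here. The deposited values (signal) are gene read counts that the authors divided by a size factor per library: whole reads were recovered to within 4.7e-09, although with size factors of 1.001 (intact 4) and 1.008 (AAV-SIRT3 4) this is weak proof for those libraries. The row without a gene name, at most 0.000289% of reads, was left out. One limma 3.58.1 fit (R 4.3.3, trend) of log2(value + 1) over 3 groups gave all comparisons, with Benjamini-Hochberg adjustment over 19442 genes. Fold changes are on this scale. The fit was tested on simulated counts of independent genes with a common dispersion. That test does not cover genes as variable or as correlated as several of the 10. Alternatives were pseudocounts of 0.5 and 10, no filter, TMM factors, edgeR 4.0.16 and DESeq2 1.42.0 on recovered reads, fits of 2 groups, a replicate block, each library left out, and (added after seeing the data) no intact libraries 1, 3 and 5. Per-kilobase levels use the exon union of GENCODE M21. The genes and lists were chosen with earlier results of these data known. Named are the 10 genes, other list genes past the threshold (at most 5 a list and comparison) with Jun, Egr3, Nr4a3, Btg2 and Fkbp5, and the genes of most like pattern. Some relatives of the 10 are also named with their rank of likeness, and Atf3 and Cebpd for their lack of overlap. Replicates are separate mice, per the series' design text, and their number limits precision.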

Additional observations from a re-analysis of the deposited data

How the results depend on the processing

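Under 810 combinations of gene, comparison and alternative, 790 values of the 10 genes kept direction and side of the threshold, 19 changed sign, 17 of them with 1 library left out, and 1 became called. That call was Egr1 for AAV-GFP against intact with a replicate block (log2 fold change 0.29, adjusted p = 0.0306, 1 of 10 genes called); the labels do not say what a number marks. Over all genes same-numbered libraries correlated by -0.095 to 0.18 (median -0.0053), 1 of 18 pairs exceeded 0.1, and 2 of 36 comparisons of a library with another group were best with its own number, while in the 10 genes replicate 1 had the lowest mean of each group. With 1 library left out, the log2 fold change ranged for AAV-SIRT3 against AAV-GFP from -0.15 to 0.083 for Npas4, and for AAV-GFP against intact from -0.019 to 0.077 for Arc. For AAV-SIRT3 against intact it ranged from -0.064 to 0.12 for Egr1, -0.051 to 0.080 for Dusp1, -0.61 to 0.19 for Egr2, -0.12 to 0.044 for Junb and -0.0075 to 0.21 for Fosb. Without intact libraries 1, 3 and 5 Egr1 had -0.12 and Dusp1 -0.14 there. The cause was not tested.

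Counts over all genes moved more. For AAV-SIRT3 against AAV-GFP 22 genes passed, against 304 with DESeq2, 8 with a fit of these 2 groups, 13 with the replicate block and 5 (without AAV-SIRT3 5) to 861 (without AAV-GFP 2) with 1 library left out; leaving out AAV-GFP 1, 3, 4 or 5 gave 9 to 12 and AAV-GFP 6 gave 38. For AAV-GFP against intact 358 passed, against 164 with all genes above 0, 1000 with DESeq2, 199 with a fit of 2 groups, 10 without intact 1, 3 and 5, 372 with the block and 129 to 686 with 1 library left out; values under 170 came without intact 3, 4 or 5 or AAV-GFP 2, 3 or 5, 540 without intact 6 and 686 without AAV-GFP 1. For AAV-SIRT3 against intact 4214 passed, against 1686 without intact 1, 3 and 5, 3923 with the block and 3279 to 4633 with 1 library left out. Of the list genes called there, the block ended the calls of Klf10, Rgs2 and Crem, edgeR those of Dusp14, Rgs2 and Crem, all genes above 0 those of Klf10, Dusp14, Rgs2, Crem, Mapk3 and Ppp3ca, and the fit of 2 groups those of Dusp14 and Crem. Gadd45g for AAV-GFP against intact was lost with the block, edgeR, all genes above 0 and a pseudocount of 0.5. Egr2 had the fewest reads of the 10, 1 to 56 a library, and the part of read depth in the spread of any of the 10 was not tested.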
